A study of Mus musculus with 31 samples.

Results

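Cystathionine beta-synthase, encoded by Cbs, was measured in mouse cortex through 1 splicing event. The event is a cassette exon, a short exon that is either spliced into the mRNA or skipped. All events carrying the symbol Cbs were taken, which gave 1 event of the 1922 listed in any file, and it was listed for all 31 of 31 mice. Cbs was chosen by its exclusion values in these same mice, so its differences between mutant and wild-type (WT) mice are described here without a test.

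The libraries were made by RASL-seq, in which pairs of DNA probes anneal on either side of a splice junction, are ligated, amplified and counted. R6/2 mice carry a transgene for a mutant fragment, exon 1, of human huntingtin under the human gene's promoter, and 3 R6/2 HD mice were set against 3 WT mice at 3 months of age. In the knock-in lines the mouse's own huntingtin gene carries the long glutamine tract, in its natural place and under its own promoter. The Q150 line comprised 4 heterozygous (HET, Q7/Q150) and 4 homozygous (HOMO, Q150/Q150) mice at 7 months, with 5 WT mice, and the Q175 line 4 HET (Q7/Q175) and 3 HOMO (Q175/Q175) mice at 18 months, with 5 further WT mice. No mouse was treated, and each library came from total RNA of 1 mouse. Model and age change together, so they cannot be told apart. The knock-in WT mice were assigned to a line by the list of events that their files share with its mutants. Short and long counts of all events summed to between 2171709 and 4337557 per mouse in the R6/2 set, 2970207 and 5219877 in the Q150 set, and 3351064 and 5256516 in the Q175 set.

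Cystathionine beta-synthase joins homocysteine and serine to form cystathionine, the entry step of transsulfuration, the route from methionine to cysteine and on to glutathione. It uses pyridoxal phosphate as a cofactor and is also a source of hydrogen sulfide in brain, where astrocytes are its best known site. The carboxy-terminal part of the enzyme is its regulatory region, where S-adenosylmethionine binds and raises activity. Huntington's disease is caused by an expanded CAG repeat in the huntingtin gene, and the mouse lines above are models of it.

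The files place the Cbs event at chr17:31750238-31752418. These positions do not lie in Cbs on GRCm38, although the submitters' notes name mm10, so the exon was identified by the length of the region between its flanking exons. That length, 2180 bases, matched 1 cassette exon of Cbs in the GENCODE M21 annotation of GRCm38, on the minus strand at chr17:31614529-31614570, within a gene that spans chr17:31608894-31637238. Of 16 events within 5 Mb that were matched the same way, 16 showed the same offset between files and annotation as Cbs. The exon is 42 bases long, all of it coding, and is exon 16 of the 17 exons of transcript Cbs-201. It lies near the end of the reading frame, at coding bases 1541 to 1582 of 1683.

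Its length is a multiple of 3, so skipping it removes 14 codons and leaves the downstream frame and the stop codon in place. Transcripts that hold the exon have 561 codons and those without it 547. The intron before the exon is 903 bases and the intron after it 1235 bases. The exon is printed here with 30 intron bases on each side, at chr17:31614499-31614600 on the minus strand of GRCm38, with the exon in capitals, because this is the stretch that was kept or lost in the mice.

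Cbs cassette exon: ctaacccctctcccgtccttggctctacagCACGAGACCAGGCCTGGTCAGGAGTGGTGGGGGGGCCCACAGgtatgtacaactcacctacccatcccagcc

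The 3 splice junctions that separate the forms follow, with 20 bases on each side and the downstream side in capitals. The short form joins the flanking exons directly, and the long form has a junction into and a junction out of the cassette exon.

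Short form, exon skipped: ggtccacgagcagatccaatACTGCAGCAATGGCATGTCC
Long form, into the exon: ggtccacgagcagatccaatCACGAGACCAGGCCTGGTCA
Long form, out of the exon: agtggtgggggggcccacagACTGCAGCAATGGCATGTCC

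The exon holds a run of G and is rich in G and C. Its GC content was 71.43%, above that of 99.48% of the 1529 cassette exons matched in this way, whose median was 48.96%. With 42 bases it was shorter than most, since 13.41% of matched exons were shorter and the median was 90 bases. A length divisible by 3 was held by 65.53% of them. The UG repeat TGTGTG, the letters GGACT and the letters TGCATG were searched on the transcript strand in the exon and in 200 intron bases on each side. TGCATG occurred 1 time in Cbs, in the intron before the exon and overlapping no other of these motifs, as in 10.38% of 1387 matched exons with full flanks, and the other 2 motifs did not occur. TGTGTG was found in 16.8% of the upstream introns and 17.52% of the downstream introns, and GGACT in 12.04% and 14.49%. These matches are descriptions of letters in the window only.

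**Figure D1:**
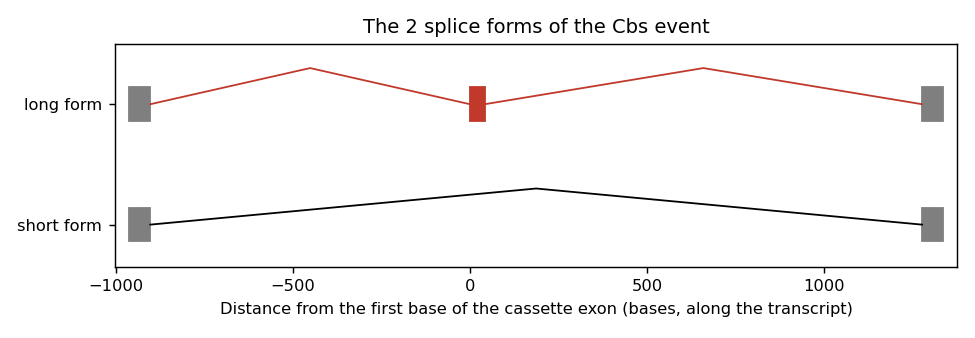
Map of the Cbs event along the transcript, in bases from the first base of the cassette exon. The red box is the 42-base exon, the grey boxes mark the flanking exons at a fixed width that is not their length, and the lines are the splices of the long form (into and out of the exon) and of the short form (exon skipped).

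Exclusion was taken as the short count, for the junction that skips the exon, as a percentage of short plus long. Probe pairs differ in efficiency, so exclusion is a relative measure and not the share of mRNA molecules. In R6/2 cortex the Cbs exon was skipped more often than in WT cortex. Exclusion was 50.2%, 46.5% and 51.2% in the 3 WT mice, from 329, 226 and 424 counts. It was 68.7%, 70.2% and 68.4% in the 3 HD mice, from 377, 393 and 411 counts. The groups did not overlap and were 17.2 points apart at their nearest mice. The WT mean was 49.3% ± 2.48 (SD, n = 3), the HD mean lay 19.8 points above it, and the HD mice spread by 0.992 points (SD, n = 3) around 69.1%. In these libraries every HD mouse lay above every WT mouse in 28.6% of all events.

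In the Q150 line exclusion was higher with each mutant allele. The 5 WT mice gave 40.7%, 44.0%, 43.4%, 41.7% and 42.8%. The 4 HET mice gave 57.1%, 48.7%, 53.4% and 58.0%, and the 4 HOMO mice 71.2%, 65.7%, 67.0% and 67.3%. All HET mice were above all WT mice, and all HOMO mice above all HET mice. WT mice averaged 42.5% ± 1.32 (SD, n = 5), HET mice averaged 54.3% ± 4.22 (SD, n = 4), and for HOMO mice the mean was 67.8% ± 2.39 (SD, n = 4). The HET mice were 11.8 points above WT, 46.6% of the 25.3 points that separated HOMO mice from WT. Over all events, 5.94% had every HET mouse above every WT mouse and 14.8% had every HOMO mouse above every WT mouse. The share with every HOMO mouse above every HET mouse was not computed.

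In the Q175 line the differences were smaller and the groups closer. The 5 WT mice gave 39.9%, 37.4%, 38.0%, 36.1% and 45.0%. The 4 HET mice gave 47.2%, 42.4%, 42.0% and 40.7%, and the 3 HOMO mice 51.9%, 56.2% and 45.7%. HET and WT mice overlapped, because the highest WT mouse exceeded 3 of the 4 HET mice, whereas all HOMO mice were above all WT mice by at least 0.625 points. The lowest HOMO mouse fell below the highest HET mouse. WT mice averaged 39.3% ± 3.49 (SD, n = 5), HET mice averaged 43.1% ± 2.86 (SD, n = 4), and for HOMO mice the mean was 51.3% ± 5.32 (SD, n = 3). These are differences from WT of 3.80 points in HET and 12 points in HOMO mice. Over all events, every HET mouse was above every WT mouse in 2.23% and every HOMO mouse in 9.79%.

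**Figure D2:**
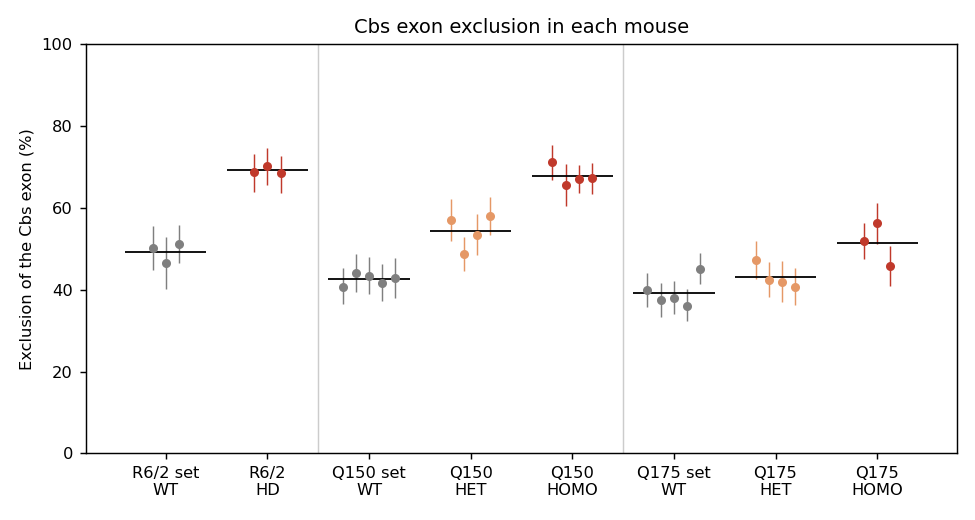
Exclusion of the Cbs exon, in percent, for each of the 31 mice (points) by group, with the 95% Wilson interval of each mouse's counts (thin bars) and the group mean (black line). R6/2 HD and Q150 HOMO mice lie between 65.7% and 71.2%, above all other mice, and the Q175 groups lie closest together.

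The counts behind each percentage ran from 226 to 704 per mouse, so the 95% Wilson intervals were between ± 3.46 and ± 6.45 points wide on each side. These intervals cover counting error only, since PCR copies of a ligated probe are not independent molecules. Dividing the chi-square of the counts within a group by its degrees of freedom gives about 1 where mice differ by counting error alone. The quotient was 0.320 in Q150 set WT mice, 0.673 in R6/2 set WT mice, 0.183 in R6/2 HD mice and 1.09 in Q150 HOMO mice. It was 3.47 in Q150 HET, 3.18 in Q175 set WT, 1.45 in Q175 HET and 4.41 in Q175 HOMO mice. The quotient thus exceeded 3 in 3 of the 8 groups. No sample of a group of 4 or more mice stood apart from its group by Dixon's criterion.

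A linear model in limma was fitted over all events of each set, to log2 of the short-to-long ratio. In R6/2 HD mice the Cbs ratio was higher by 1.20 ± 0.18 (SE) on the log2 scale, a 2.30-fold higher ratio. Its size ranked 191 of 1743 events, and the median event was higher by 0.18. Of all events tested in that comparison, 28.6% were called at a Benjamini-Hochberg adjusted p under 0.05. The share is given as background, here and in the other comparisons, and nothing is read from it for Cbs, which was chosen on these same contrasts.

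In Q150 HET mice the ratio was higher by 0.68 ± 0.15 (SE) and in HOMO mice by 1.51 ± 0.15 (SE), where the fold was 2.85. The median events were higher by 0.10 and 0.19. By size Cbs ranked 107 of 1785 events in HET and 15 of 1785 in HOMO mice, and 12 among those that rose in HOMO mice. HOMO exceeded HET mice by 0.82 ± 0.16 (SE), and the slope was 0.75 ± 0.074 (SE) per mutant allele. Of all events, 3.47% were called in HET and 23.9% in HOMO mice against WT.

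In Q175 mice the ratio differed from WT by 0.23 ± 0.15 (SE) in HET mice and by 0.70 ± 0.16 (SE) in HOMO mice, with median events at 0.041 and 0.068. The ranks by size were 659 and 107 of 1839 events. HOMO exceeded HET mice by 0.48 ± 0.17 (SE), and the slope was 0.34 ± 0.079 (SE) per allele. Of all events, 0.598% were called in HET and 7.07% in HOMO mice against WT. The change in HOMO mice was larger in the Q150 than in the Q175 line by 0.81, with a combined SE of 0.22, and the change in HET mice by 0.46, with a combined SE of 0.21. These differences were not tested.

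Single mice set some of the Q175 values. Without Q175 HET replicate 1, the mouse with the highest exclusion of its group, the HET change was 0.15. With all 10 knock-in WT mice as controls it was 0.13. Without Q175 HOMO replicate 2 the HOMO change was 0.56 and the slope 0.27. In the Q150 line the HET change was 0.63 without Q150 HET replicate 1, 0.61 without replicate 4 and 0.79 without replicate 2.

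**Figure D3:**
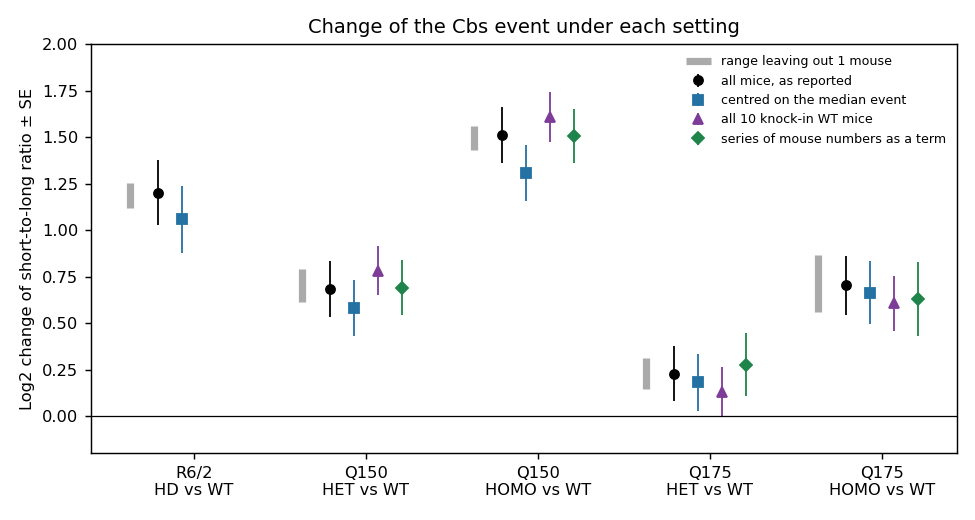
Cbs change against WT, as log2 of the ratio of short to long counts (points, with ± SE bars) in the 5 comparisons, as reported and with 3 other settings, beside the range obtained when each mouse is left out in turn (grey bars). Every point lies above 0, from 0.13 in Q175 HET mice with all 10 WT mice to 1.61 in Q150 HOMO mice with all 10 WT mice.

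The mouse numbers fall into a low and a high series in each knock-in set, up to 80 and from 402 in the Q150 set and up to 880 and from 3857 in the Q175 set. Values were compared within these series. In the Q150 set the series differed in Cbs exclusion by 0.637 points with genotype as a term, and a two-sided exact permutation test within groups over 240 arrangements gave p = 0.708. In the low series exclusion was 42.7% in 3 WT, 53.1% in 3 HET and 68.4% in 2 HOMO mice. In the high series it was 42.2% in 2 WT mice, 58.0% in 1 HET mouse and 67.2% in 2 HOMO mice. The order WT, HET, HOMO was thus present in both series, and its share over all events was not computed.

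In the Q175 set all HET mice belonged to the low series and all HOMO mice to the high series, so series and allele number cannot be told apart between HET and HOMO mice. The HET mice averaged 43.1% against 38.4% in the 3 WT mice of the low series, and 4 of 4 HET mice lay above these WT mice. The HOMO mice averaged 51.3% against 40.6% in the 2 WT mice of the high series, and 3 of 3 lay above them. The shares of all events with such an order within a series were not computed. With the series as a term, the HOMO change was 0.63 ± 0.20 (SE).

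WT mice differed in level between models. R6/2 set WT mice averaged 49.3%, above the 42.5% of the Q150 set and the 39.3% of the Q175 set, and the lowest R6/2 set WT mouse was above the highest of the knock-in WT mice. The share of all events with that order was not computed. The knock-in WT mice of the Q150 and Q175 sets differed by 3.24 points, with p = 0.103 in a two-sided exact permutation test of 5 against 5 mice, whose smallest possible p is 0.00794. Strain, age and the list of measured events change with the model, so the source of these level differences cannot be told apart.

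The short and long counts, each scaled to 1000000 counts of its library (CPM), show which form moved. In R6/2 mice the long form fell: it was 56.9, 55.7 and 58.7 CPM in WT and 34.3, 29.6 and 30.0 in HD mice. The short form was 57.3, 48.3 and 61.5 in WT and 75.3, 69.8 and 64.8 in HD mice. Neither form overlapped between the groups, but the share of all junctions that separate in this way was not computed. On the log2 scale the long form differed by -0.87 ± 0.16 (SE), the short form by 0.33 ± 0.14 (SE) and their sum by -0.16 ± 0.11 (SE). Over all events the median was higher by 0.051 for the long form, 0.19 for the short form and 0.13 for the sum. With median-of-ratios scaling, which lowered the median R6/2 change of all events by 0.12, the sum of the Cbs forms differed by -0.28 and the short form by 0.21.

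In Q150 HOMO mice the forms moved in opposite directions by like amounts. The short form was 89.8, 63.1, 101 and 74.1 CPM in HOMO mice and between 42.1 and 56.2 in the WT mice. The long form was 36.3, 33.0, 49.6 and 36.0 in HOMO mice and between 57.3 and 75.1 in WT mice. The log2 differences were 0.78 ± 0.14 (SE) for the short form and -0.73 ± 0.14 (SE) for the long form, and their sum differed by 0.11 ± 0.13 (SE). Over all events the medians were 0.16 for the short form, -0.0036 for the long form and 0.062 for the sum. In HET mice the short form differed by 0.39 ± 0.14 (SE), the long form by -0.29 ± 0.14 (SE) and their sum by 0.044 ± 0.13 (SE).

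In Q175 mice the long form was lower and the short form nearly level. The long form was 46.2, 45.3 and 51.4 CPM in HOMO mice, between 53.9 and 68.3 in HET mice and between 68.5 and 86.7 in WT mice, with no overlap between these groups. The share of all junctions that separate in this way was not computed. The short form was 49.9, 58.2 and 43.2 in HOMO mice and between 43.1 and 56.1 in WT mice, which overlap. The log2 differences in HOMO mice were -0.69 ± 0.11 (SE) for the long form, 0.017 ± 0.14 (SE) for the short form and -0.37 ± 0.10 (SE) for their sum. The short form's direction turned with median-of-ratios scaling, at -0.013. In HET mice the long form differed by -0.32 ± 0.10 (SE) and the sum by -0.23 ± 0.093 (SE). In bulk cortex, fewer cells of a type and less RNA per cell cannot be told apart.

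**Figure D4:**
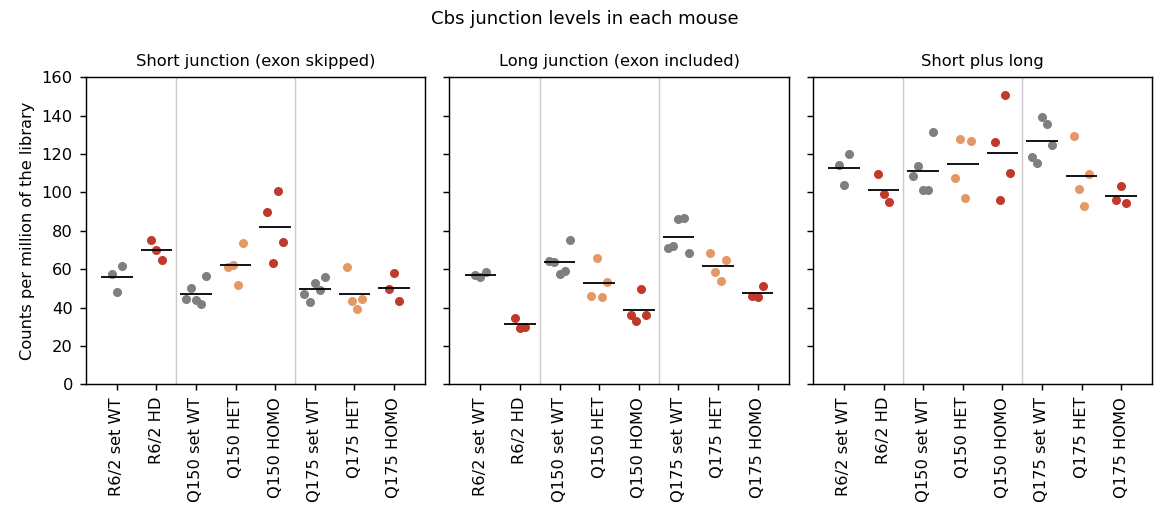
Cbs short, long and summed CPM, counts scaled to 1000000 counts of the library, for each mouse (points) by group, with group means (black lines). The long form is lower in all mutant groups by mean, whereas the short form is higher in R6/2 HD and Q150 mice and close to WT in Q175 mice.

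Genes that mark cell types were read through the sum of their short and long counts. Of 19 astrocyte markers 2 had an event, Fgfr3 and Ndrg2, and Ndrg2 supplied nearly all of the sum. In R6/2 mice the sum was between 17578 and 18530 CPM in WT and between 9037 and 10117 in HD mice. In Q150 HOMO mice it was between 9261 and 14513 against 11945 to 16938 in WT, and in Q175 HOMO mice between 9707 and 11693 against 13313 to 16674. The astrocyte sum was thus lower with no overlap in R6/2 HD and Q175 HOMO mice, and its part in the Cbs values was not tested. The share of all events whose summed counts separate in this way was not computed, for these markers or those below. Neuron markers, 6 of 15 with an event, summed to between 38997 and 42729 in R6/2 set WT mice and between 31505 and 36143 in HD mice, and overlapped between HOMO and WT mice in the Q175 set but not in the Q150 set. Oligodendrocyte markers, 2 to 4 of 10 with an event depending on the set, and the endothelial marker Pecam1 overlapped between each mutant group and the WT mice of its set. The oligodendrocyte sum was between 9001 and 13066 CPM in R6/2 HD mice and between 10880 and 13272 in their WT controls. The defining markers Gfap, Aqp4 and Rbfox3 had no event here, nor did any of 6 microglia markers. Their levels are therefore not known here.

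Few genes of the surrounding pathway were measured. Of 23 symbols in a list for transsulfuration and hydrogen sulfide 1 gene had an event, and of 5 for pyridoxal phosphate supply 0 had one. Chac2, an enzyme that degrades glutathione, had 1 cassette event that passed the limma test in 0 of the 5 comparisons as fitted, although its unadjusted p was under 0.05 in 4 of them. Its log2 differences ran from -0.55 ± 0.20 (SE) in R6/2 HD mice, with a limma adjusted p of 0.0588, to -0.13 ± 0.12 (SE) in Q175 HET mice. In R6/2 mice it was called when the ratios were centred on the median event or R6/2 WT replicate 3 was left out, and in Q150 HOMO mice when centred or without knock-in WT replicate 3. The shares of all events called in these comparisons stand above, and 1 gene is too few to set against them. No event of the huntingtin gene, Htt, was listed.

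Of the 10 nearest genes on the chromosome, 5 on each side of Cbs, 2 had an event. U2af1, a splicing factor subunit that recognises the end of the intron, had 2 events with the same counts, so they are 1 measurement. U2af1 exclusion averaged 42.9% in R6/2 HD mice, with an SD of 2.39 over the 3 mice, and 35.7% in WT mice, with an SD of 1.14 over 3 mice. The log2 ratio rose by 0.44 ± 0.12 (SE), and limma gave an adjusted p of 0.0168. That call was lost in 5 of 11 alternatives, with adjusted p up to 0.113, among them centring on the median event and the fits without R6/2 WT replicates 3 or 6 or R6/2 HD replicate 868. It was called in 0 of the 4 knock-in comparisons as fitted in limma, with an unadjusted p under 0.05 in 1, Q150 HOMO mice, and the log2 differences lay between 0.058 and 0.28. In Q150 HOMO mice it was called in 2 of 21 alternatives, with all 10 knock-in WT mice and without knock-in WT replicate 5, and the limma adjusted p ran from 0.0154 to 0.719 over the 21. The event of 1500032D16Rik, now named Ndufv3, a subunit of respiratory complex I, was called in 0 of the 5 comparisons as fitted in limma, with an unadjusted p under 0.05 in 0 of 5, and had mean exclusion between 98.3% and 98.7% in every group. It was called in R6/2 mice without R6/2 WT replicate 4.

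To find the events that varied most like Cbs, each event's log2 ratio was taken relative to the mean of the set's WT mice and correlated with Cbs over the 31 mice. The mice share groups, so these correlations follow differences between groups and are given as descriptions. Over 1661 other events listed in all sets the median r was 0.19. The 5 highest were Sort1, a sorting receptor (r = 0.89), Ank2, which encodes ankyrin-B, a link between membrane proteins and the cytoskeleton (r = 0.89), Aff4, a scaffold of the super elongation complex (r = 0.88), Sorbs2, an adaptor of the actin cytoskeleton (r = 0.88), and Acss2, which makes acetyl-CoA from acetate (r = 0.88). All 5 are cassette events, as are 1853 of the 1922 events listed in any file. Over the 18 mutant mice only, their r was between 0.78 and 0.84, and after centring on the median event between 0.84 and 0.85.

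Exclusion of the Ank2 exon was 22.5% in R6/2 set WT and 39.1% in R6/2 HD mice, and 26.2%, 32.5% and 39.4% in Q150 set WT, HET and HOMO mice. For Sorbs2 the same groups stood at 54.9%, 75.0%, 54.2%, 65.6% and 69.5%. Acss2 had the highest change of the 5 in R6/2 HD mice, 1.97, with exclusion of 84.2% in WT and 95.4% in HD mice. Cbs had a larger log2 change than all 5 in Q150 HOMO mice and a smaller one than Sorbs2 and Acss2 in R6/2 HD mice.

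The 3 lowest correlations belonged to Clec16a (r = -0.87), an alternative 5′ splice site, Brd2 (r = -0.82), an alternative 3′ splice site in a reader of acetylated histones, and Pak3 (r = -0.80), a cassette exon of a p21-activated kinase. Clec16a exclusion was 66.1%, 60.5% and 51.4% in Q150 set WT, HET and HOMO mice. Pak3 stood at 25.7% in R6/2 set WT and 20.1% in R6/2 HD mice, and its r over the mutant mice alone was -0.78. Brd2 differed by -1.05 in R6/2 HD mice and by -0.068 in Q175 HOMO mice on the log2 scale. Its exclusion was 97.7% in R6/2 set WT and 95.2% in R6/2 HD mice.

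**Figure D5:**
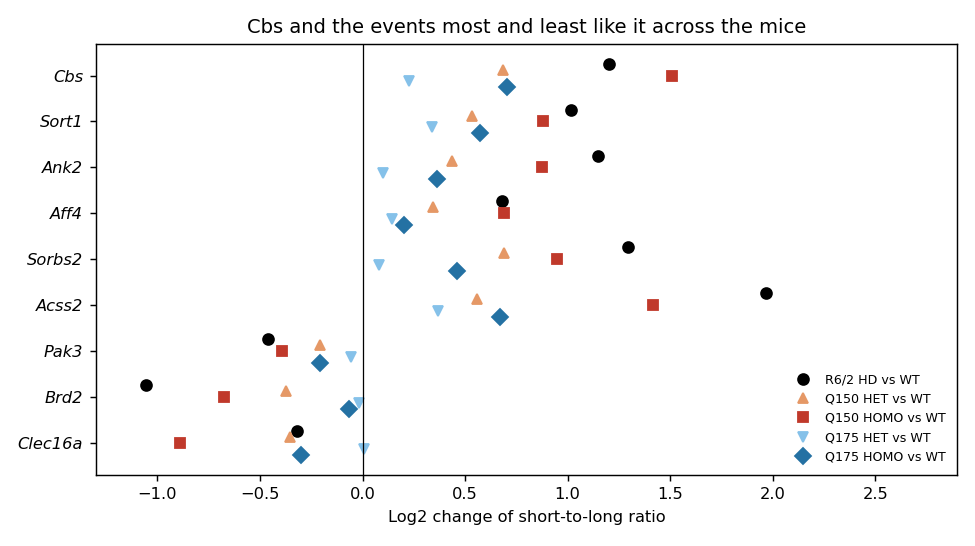
Change against WT, on the log2 scale of short over long counts, in the 5 comparisons for Cbs, the 5 events most like it and the 3 least like it across the mice. Points of 1 event are offset vertically for legibility, and the comparisons of 1 knock-in line share WT mice. Cbs and the 5 like events lie at or to the right of 0.081, and the least like events lie at or to the left of 0.0054.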

How the data were processed

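Per the labels and methods, total RNA of 1 cortical hemisphere per mouse was assayed by RASL-seq. The deposited files list, per event, a short and a long count as the authors made them, with commas inside the numbers, so their unit was recorded as other. The aligner or matcher is not given in the sources used here. All titles call the knock-in mice Q150 and all mutant genotypes open with Q175, so the line was taken from the glutamine number. The methods give the HOMO group sizes of the Q150 and Q175 lines the other way round, and the labels were followed. The number of Q175 HET replicate 1 differs between its title and its file. Replicates are mice. Here log2((short + 0.5)/(long + 0.5)) was fitted with limma 3.58.1 (R 4.3.3) over all events of a set with at least 10 mean counts, with a variance trend on the counts, and Benjamini-Hochberg adjusted. The model was tested on simulated data. Scipy 1.17.1 gave Wilson intervals, and exact permutation tests enumerated every arrangement. Cbs, the lists and tests were chosen with earlier results of these data known. Named were all Cbs events, the 5 most and 3 least correlated events, and list members with an event, 1 of which is not reported here. Alternatives varied the pseudocount, minimum, centring, trend, controls, series, scaling and mice. Positions were not converted between builds, and the exon was matched to GENCODE M21 by length. Amino acid and probe sequences were not used here.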

Additional observations from a re-analysis of the deposited data

How the results depend on the processing

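The 9 Cbs log2 changes kept their direction under every alternative run. Centring each mouse on its median event gave 1.06 in R6/2 HD and 1.31 in Q150 HOMO mice, moves larger than the residual SD, and the same centring moved the share of higher events among those called from 73.9% to 59.3% in R6/2 HD, from 87.1% to 57.5% in Q150 HET, from 82.9% to 52.0% in Q150 HOMO and from 63.6% to 44.4% in Q175 HET mice, and in Q175 HOMO mice by less, from 79.2% to 70.1%. Leaving out each mouse in turn, the changes ran from 1.12 to 1.26 in R6/2 HD, 0.61 to 0.79 in Q150 HET, 1.43 to 1.56 in Q150 HOMO, 0.15 to 0.31 in Q175 HET and 0.56 to 0.87 in Q175 HOMO mice. HOMO against HET ran from 0.72 to 0.90 in the Q150 and 0.33 to 0.64 in the Q175 line, and the slopes from 0.71 to 0.77 and 0.27 to 0.40. Reversed values were those of the Cbs short form in Q175 HOMO mice (-0.013 with median-of-ratios scaling), of 1500032D16Rik when single mice were left out (-0.21 to 0.11 in Q150 HOMO mice, the highest without HOMO replicate 3, and -0.0041 to 0.23 in Q175 HET mice, the lowest without HET replicate 3) and of U2af1 in Q175 HET mice (-0.025 with all 10 knock-in WT mice), and the cause was not tested.

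The number of all events called in Q150 HET mice, 62, became 143 with all 10 WT mice, 137 with the series, 40 when centred and 30 without the trend. It was 4, 26 and 36 without HET replicates 1, 2 and 3, and 36, 36 and 28 without knock-in WT replicates 1, 3 and 4. In Q175 HET mice 11 became 1 without the trend, 4 with the series, 33 and 2 without HET replicates 1 and 4, and 7 and 6 without knock-in WT replicates 8 and 9. In Q175 HOMO mice 130 became 83 with all 10 WT mice, 82 with the series, 39 without the trend, and 74, 84 and 74 without HOMO replicates 1, 2 and 3. Exclusion from summed counts differed from the group means by less than 1 SD in all 8 groups. A ratio with the long count divided between 2 junctions was not run, because the files do not show that the long count holds both. No paired analysis was possible because the mice of different groups carry different numbers.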
